A study of Caenorhabditis elegans with 2 samples.

Results

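The genes described here are the his- genes of Caenorhabditis elegans, taken as every protein-coding gene whose symbol in Ensembl release 115 (assembly WBcel235) starts with his-. The rule found 72 loci of the 19973 protein-coding genes on the nuclear chromosomes. They carried only 50 distinct Ensembl symbols, because 14 symbols stood for several loci each, 36 loci in all, so the 72 RefSeq names at the same positions are used below. By RefSeq product, 17 loci encoded H2A, 16 H2B, 15 H3, 16 H4 and 5 the variant H3.3. His-24 encoded a linker histone, and his-73 and his-39 short proteins with an H2A/H2B/H3 domain, called fragments below. The label of core histone genes therefore fitted 69 of the 72.

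Chromatin immunoprecipitation and sequencing (ChIP-seq) with an anti-GFP antibody had been done on embryos of strain RW12224, in which a TY1, EGFP and 3xFLAG tag (a fluorescent protein between epitope tags) was inserted by CRISPR into ref-1 on chromosome II. Both biological replicates were whole embryos of the midembryonic stage, aged 3 hours and synchronised by egg bleaching. All animals carried the tagged allele, so the design held 1 group and no contrast. The histone loci are therefore set against all protein-coding genes. Whole embryos mix many cell types, and the peaks do not show in which cells a site was occupied.

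Core histones H2A, H2B, H3 and H4 form the protein spool of the nucleosome, linker histone H1 binds the DNA between nucleosomes, and H3.3 replaces H3 outside DNA replication. Most animal core histone genes are made in bulk while DNA is copied, have no introns, and end in a stem-loop in place of a poly(A) tail. In the worm they stand largely as divergent pairs, an H2A gene back to back with an H2B gene or an H3 gene with an H4 gene, with a short spacer that holds both promoters. REF-1 is a basic helix-loop-helix (bHLH) protein related to the Hairy/Enhancer-of-split repressors and acts in embryonic cell fate decisions.

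The DNA under 3 summits is shown first, because the results on histone genes turn on these places: the histone entry with the highest signal, the entry of the conservative set within a spacer, and a site beside his-35 whose signals were deposited under a histone promoter as well. A summit is the base the authors gave as the centre of a peak. Each line holds 50 bp on either side of the summit, read on the plus strand of WBcel235 from the RefSeq genome at chrIV:7486048-7486148, chrV:16040546-16040646 and chrV:9544394-9544494. Capitals mark matches, on either strand, to the motifs searched. These were CANNTG as the general bHLH site and CACGTG as a case of it, CACGCG with its looser form CACGNG and the related CACNAG, and the core promoter words TATAAA and CCAAT.
his-61/his-62: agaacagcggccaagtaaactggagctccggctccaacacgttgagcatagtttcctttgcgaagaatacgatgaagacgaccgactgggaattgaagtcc
his-4/his-3: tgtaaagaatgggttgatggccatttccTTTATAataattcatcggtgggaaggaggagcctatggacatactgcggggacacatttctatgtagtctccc
mdf-1/his-35: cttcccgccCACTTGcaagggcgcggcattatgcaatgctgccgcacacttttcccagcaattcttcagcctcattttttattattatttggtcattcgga

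The his-61/his-62 stretch lay wholly inside the coding sequence of his-61 and held none of the motifs. The his-4/his-3 stretch lay in the spacer and held TATAAA on the minus strand, the strand of his-4. The stretch beside his-35 held 1 CANNTG match, CACTTG. None of the 3 held CACGCG or CACGTG.

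Peaks of REF-1 passed the authors' reproducibility threshold at few histone promoters. A locus was counted when a summit lay in its promoter window, 1000 bp upstream to 200 bp downstream of any transcript start. In the conservative set of 675 entries, 5 of the 72 loci had a summit (6.94%), beside 284 of all 19973 protein-coding genes (1.42%). The 5 loci were his-61, his-62, his-4, his-3 and his-41. These were H2A or H2B genes without exception, and 0 of the 31 H3 and H4 loci were among them. Beside 1.42% of all genes, 0 of 31 is near the general share and is not read as a difference between histone types. Since divergent neighbours share a spacer, the 5 loci rested on only 3 entries. No test was made of the difference in share, as the loci do not vary independently.

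The other sets of peaks gave similar or smaller counts. The other thresholded set of the pair, with 653 entries, had summits at the same 5 loci (6.94%), beside 1.41% of all genes. The set made from replicate 1 alone, with 344 entries, had a summit at 0 of 72 loci, beside 0.646% of all genes. The set made from replicate 2 alone, with 405 entries, had summits at his-61, his-62 and his-31 (4.17%), beside 0.926% of all genes. So his-61/his-62 was the histone promoter pair found in 3 of the 4 thresholded sets, and his-31, an H4 gene, passed in replicate 2 only. The summit counted for his-31 lay inside the H3 gene his-32.

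Below the threshold, candidates stood at a share of histone loci near that of all genes. The ranked list between replicates, with 72151 candidates, had a summit in the window of 39 of the 72 loci (54.2%), beside 12025 of all genes (60.2%). The other ranked list of the pair had one at 54.2% of the loci beside 58.3% of all genes. In the lists of a single replicate the order was the other way round, with 51.4% of the loci beside 48.7% of all genes in replicate 1 and 36 of the 72 loci beside 48.2% of all genes in replicate 2. The 39 loci shared 59 distinct candidates. The median score of the 59 was 84, on the authors' scale, which grows as the irreproducible discovery rate (IDR) of a peak in 2 ranked inputs falls and is capped at 1000, and the median over the whole list was 55. Their median signal was 35.5, against 28.5 over the list. Of the 59, 14 had a score of 25, the lowest in the list. The lowest score in the conservative set was 830.

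**Figure D1:**
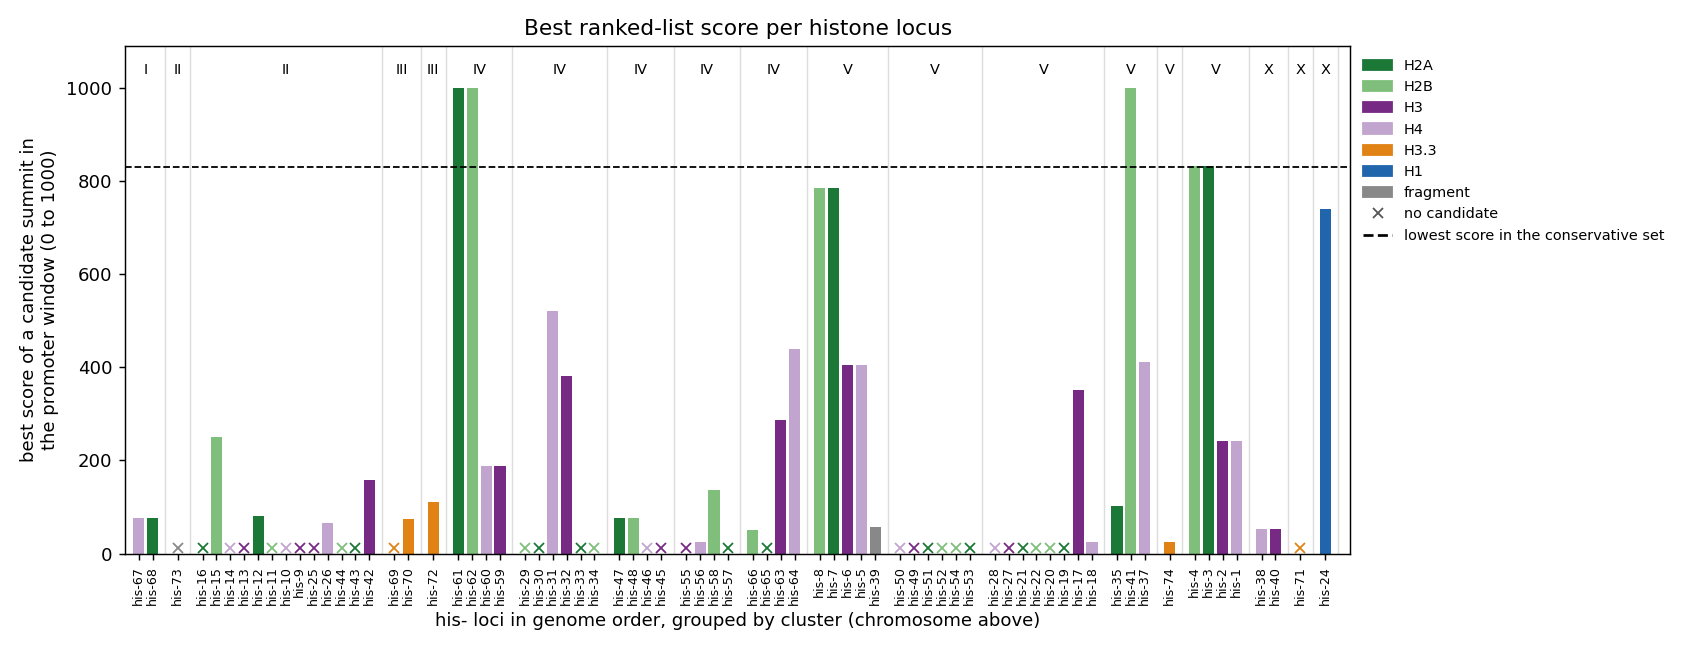
Best score of a ranked-list candidate in the promoter window of each of the 72 his- loci (vertical axis, 0 to 1000), in genome order by cluster and coloured by histone type; crosses mark loci with no candidate and the dashed line the lowest score of the conservative set, 830. 5 bars reach the line, those of his-61, his-62, his-41, his-4 and his-3, and 33 loci have no candidate.

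The loci fell into 14 clusters of 2 or more genes, joined where neighbours stood at most 10000 bp apart, plus 5 genes on their own. The largest cluster, on chromosome II, held 13 loci and had candidates at 4 of them. Its best score was 251, in the window of the H2B gene his-15, with the summit inside the H2A gene his-16. Divergent pairs took up 62 of the 72 loci. There were 16 H2A/H2B pairs, 14 H3/H4 pairs and a single H2A/H4 pair, his-67/his-68. A candidate lay in a window of 9 of the 16 H2A/H2B pairs, with best scores between 51 and 1000 (median 251), and of 9 of the 14 H3/H4 pairs, with best scores between 25 and 521 (median 242). The histone entries of the thresholded sets between replicates, the same 3 in both sets, all fell on the H2A/H2B side. On so few entries, this is not read as a difference between the kinds of pair. The his-41 entry among the 3 repeats the signals of an entry outside the histone windows, as described below. It also gives the his-35/his-41 pair its best score of 1000, while the next candidates of that pair scored 102. The H2A/H2B median of 251 depends on that 1000, so the medians of the 2 kinds of pair are not ranked here.

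His-61 and his-62, an H2A and an H2B gene on chromosome IV (7485834-7486217 on the minus strand and 7486545-7486916 on the plus strand), shared the histone entry with the highest signal. It spanned 7485960-7486235 with its summit at 7486098, 119 bp into the coding sequence of his-61 and not in the 327 bp spacer. Its signal was 34.5 in replicate 1 and 54.1 in replicate 2, and 85.9 in the entry between replicates. The 3 values come from different peak calls, and their scale is the authors' own. The entry reached the capped score of 1000 and stood at place 632 of the 72151 candidates ranked by IDR. The replicates were not alike in rank: the same peak scored 237 in the ranked list of replicate 1 and 1000 in that of replicate 2. A lower candidate (score 564) lay inside his-62, and the H4 and H3 genes his-60 and his-59 of the same cluster had a best score of 188.

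His-4 and his-3, an H2B and an H2A gene on chromosome V (16040144-16040515 on the minus strand and 16040808-16041191 on the plus strand), had an entry with its summit inside their 292 bp spacer, at 16040596, 81 bp upstream of his-4. Its signal was 30.8 in replicate 1 and 44.5 in replicate 2, and 70.2 between replicates. Its score of 832 stood just inside the threshold, at place 852. As the conservative set held only 675 entries, some candidates ranked above it were left out of that set, for a reason not examined here. Within the replicates' own ranked lists the peak scored 236 and 173, so it passed in neither replicate alone. The adjoining H3 and H4 genes his-2 and his-1 had a best score of 242. The median signal of the conservative set was 102.3, above both of these histone entries.

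The entry counted for his-41, an H2B gene on chromosome V (9545536-9546264), repeated the replicate signals of a stronger entry outside every histone promoter window. It spanned 9544521-9544796 with its summit at 9544659, the last base of the H2A gene his-35 and 877 bp upstream of his-41. It had a score of 1000 but a signal of 6.39, against 86.2 in a neighbour at 9544306-9544581. Both entries carried a signal of 40.0 for replicate 1 and 44.6 for replicate 2, from the same replicate peaks at 9544322-9544565 and 9544307-9544566. Those peaks overlapped the his-41 entry by only 45 and 46 bp. The summit of the stronger entry, 9544444, lay 215 bp past the 3′ end of his-35, 218 bp upstream of mdf-1, a spindle assembly checkpoint gene, and 92 bp outside the window of his-41. Counting these replicate peaks where the stronger entry lies leaves 4 loci and 2 entries in the conservative set.

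**Figure D2:**
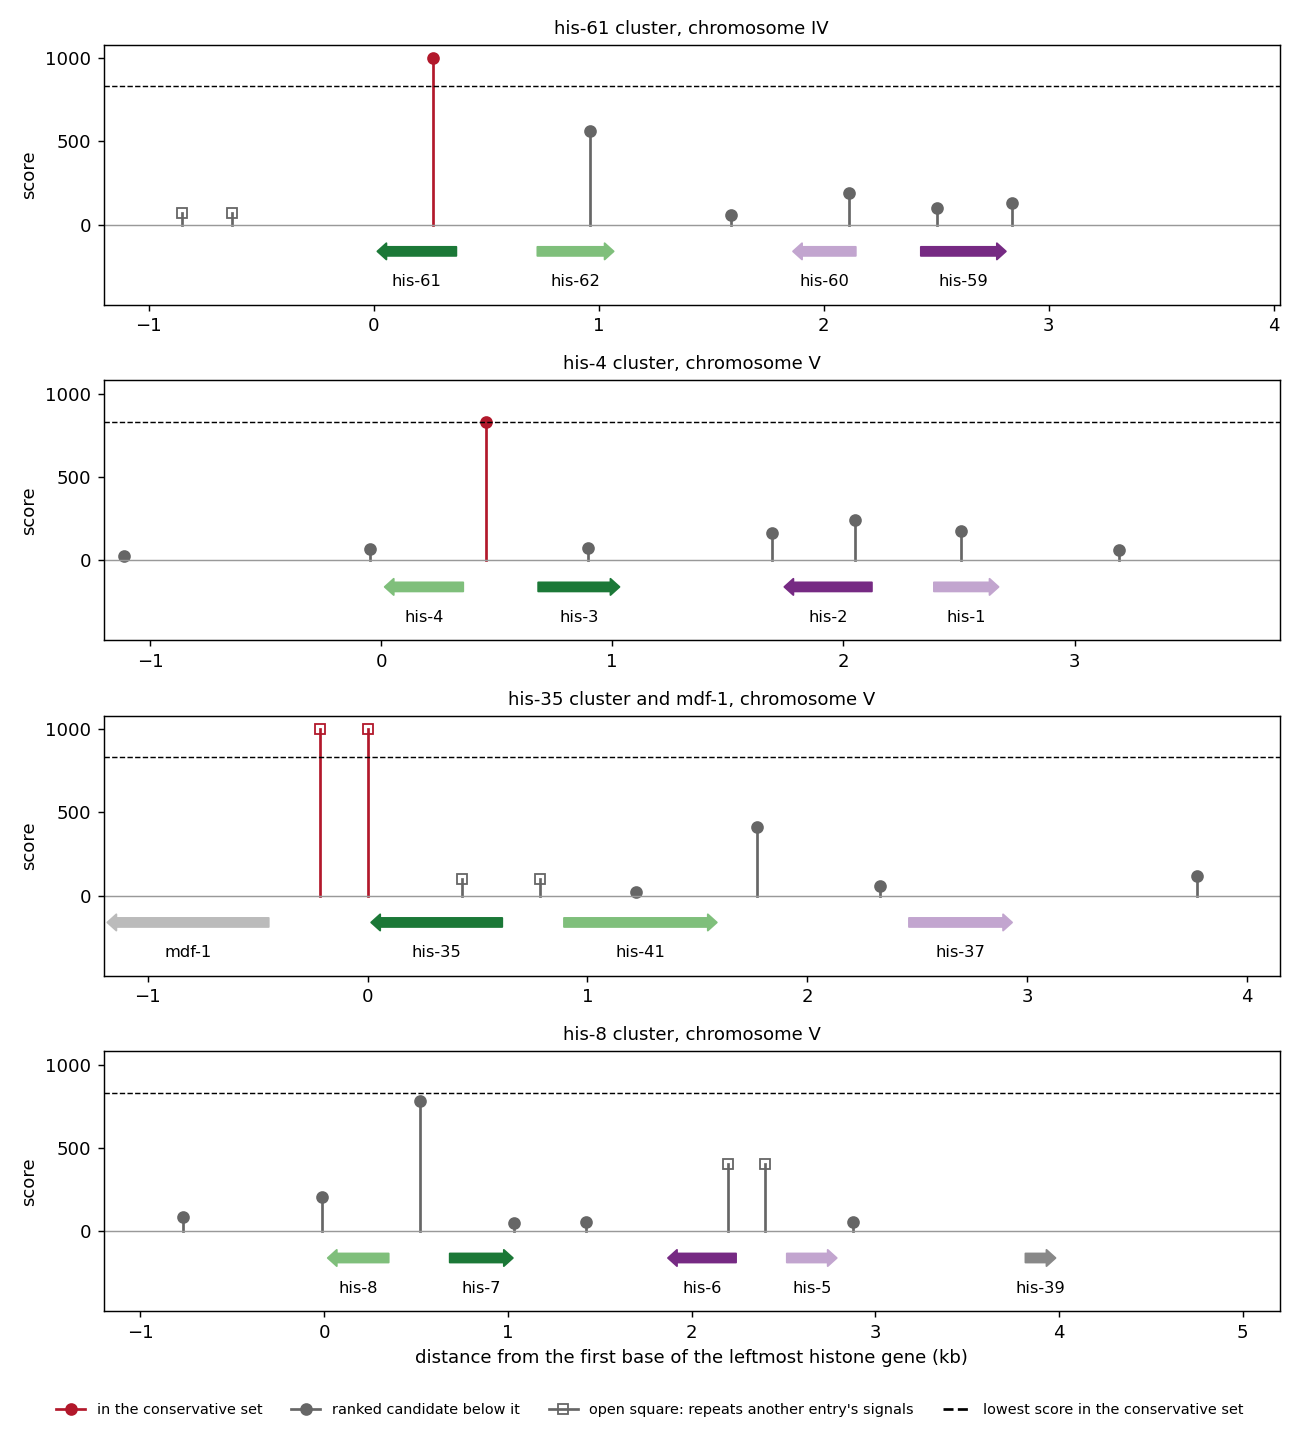
Candidates of the ranked list (stems at the summit, height the score from 0 to 1000) over the genes of 4 histone clusters, with arrows for gene direction, along the distance in kb from the first base of the leftmost histone gene. Red stems are in the conservative set, open squares repeat another entry's replicate signals, and in the his-35 cluster the red stem on the left lies between mdf-1 and his-35.

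Repeated signals occurred at a lower share of histone candidates than over the whole list. Of the 59 candidates, 9 shared both replicate signals with another entry on the chromosome (15.3%), against 24.2% of the whole list. In the conservative set 46 of 675 entries did so (6.81%), and 15 of the 675 had a signal under 10. The best candidates of his-6 and his-5, an H3/H4 pair with a score of 406, were a repeated couple too: both entries held signals of 23.2 in replicate 1 and 45.9 in replicate 2, with one summit inside his-6 and the other in the spacer.

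Just outside the threshold stood his-8/his-7 and his-24, in the ranked list between replicates used here. His-8 and his-7, an H2B/H2A pair on chromosome V, had a candidate of score 784 with its summit in the spacer at 8533235. Its signal was 39.6 in replicate 1, 33.6 in replicate 2 and 75.4 between replicates. Within the replicates' own ranked lists the spacer peak scored 25 in replicate 1 and 77 in replicate 2. The linker histone gene his-24, on chromosome X at 14490094-14491119, had a candidate of score 739 with its summit 24 bp past the start. Its signal was 34.1 in each replicate and 76.5 between them, but in their own ranked lists the peak scored 16 in replicate 1 and 173 in replicate 2. The signals of these 2 candidates overlapped those of the entries that passed: 76.5 was above the 70.2 of his-4/his-3. Apart from his-6/his-5, the next scores were 521 at his-31, 440 at his-64 (H4), 412 at his-37 (H4), 381 at his-32 (H3), 352 at his-17 (H3) and 286 at his-63 (H3). The candidates at his-64 and his-63 shared the same replicate 2 peak, with a signal of 27.7, but not the same replicate 1 peak. The order of scores held in that list only. In the other ranked list of the pair his-6/his-5 came nearest to the threshold with 803, his-8/his-7 had 614 and his-24 had 582.

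**Figure D3:**
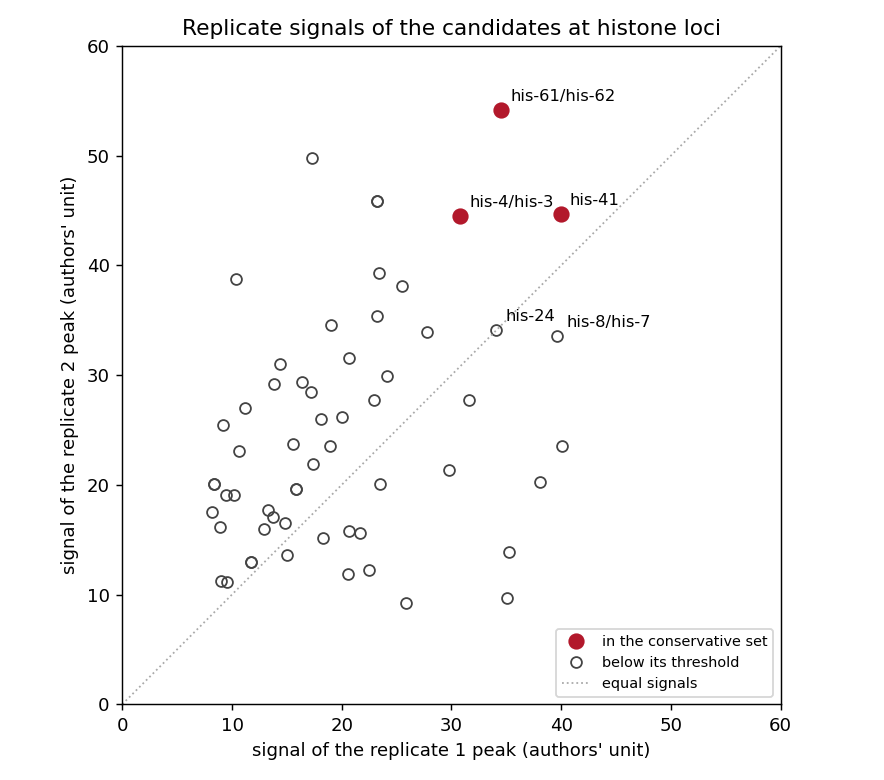
Signal of the replicate 1 peak (horizontal) against that of the replicate 2 peak (vertical), in the authors' unit, for the 59 candidates at histone loci; filled points are in the conservative set and the dotted line marks equal signals. In 43 of the 59 the replicate 1 signal is the lower, and his-61/his-62 and his-4/his-3 lie above the line while his-8/his-7 lies below it.

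The replicates did not weigh the histone candidates alike. Replicate 1 had the lower signal in 43 of 59 (72.9%), but so it had in 61.4% of the whole list and in 75.1% of the conservative set. His-31 and his-32, an H4/H3 pair on chromosome IV, stood differently in the lists. Their peak inside his-32 scored 1000 in replicate 2, with a signal of 38.2, and 521 between replicates, where replicate 1 gave 25.4. The H2A/H4 pair his-67/his-68 had 17.3 in replicate 1 and 49.8 in replicate 2, and a score of 77, but 631 in the other ranked list of the pair.

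Of the 5 replication-independent H3.3 genes, 3 had a candidate, beside 60.2% of all genes, and none of their scores reached 830. His-72 had a best score of 110, with signals of 16.4 in replicate 1 and 29.3 in replicate 2. A small RNA gene, Y49E10.36, lay within 100 bp of that candidate. His-70 had a best score of 74 and his-74 of 25, where the median over the whole list was 55. The his-74 candidate shared both replicate signals with another entry. His-69 and his-71 had no candidate of the ranked list between replicates in their windows, and neither had the fragment gene his-73. The other fragment gene, his-39, had a best score of 58. An entry of the conservative set (score 894, signal 75.6) lay 898 bp past the 3′ end of his-72, inside the neighbouring gene Y75B8A.33 and outside every histone window.

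Whether a histone locus had a candidate went with how much of its promoter window was unique in the genome. Histone genes are near copies of each other: the 72 loci held only 50 distinct coding sequences, and 36 loci had an exact copy elsewhere. For each window the share of positions whose 36 bp word occurs once in the genome, on either strand, was counted. The median share was 23.3% over histone loci and 100% over all genes. Of the 40 histone loci under 50% unique, 10 had a candidate (25.0%), beside 133 of all 574 genes under 50% (23.2%). Of the 32 loci at 50% or more, 29 had one (90.6%), beside 61.3% of the 19399 genes there. Words of 50 and 100 bp gave the same 10 of 40 and 29 of 32 histone loci, while the share of all genes under 50% with a candidate was 16.4% at 50 bp and 13.6% at 100 bp. Of the 20 loci with no unique 36 bp word in the window, 0 had a candidate, and so did 0 of all 179 genes of that kind.

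**Figure D4:**
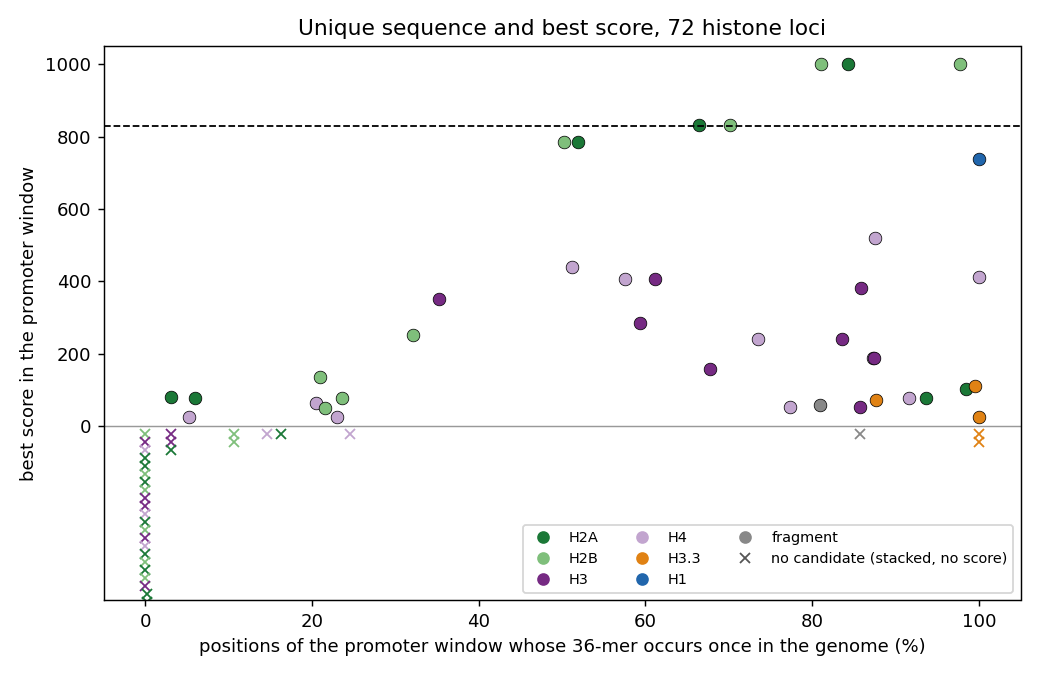
Share of promoter window positions whose 36 bp word is unique in the genome (horizontal, %) against the best ranked-list score (vertical) for the 72 histone loci, coloured by histone type; crosses below the zero line are loci without a candidate, stacked with no score. 30 of the 33 crosses lie under 50%, and the 5 loci at or above the dashed line at 830 lie at 50% or more.

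All 5 loci of the conservative set were among the 32 with at least 50% unique windows (15.6%, beside 1.43% of all genes there), and 0 of the other 40 were (6 of all 574 genes, 1.05%). These 5 loci rest on 3 entries, and the his-41 entry repeats the signals of the stronger entry beside mdf-1. The 50% limit was chosen after the data were seen. At the repeated loci, then, these lists cannot tell a site that was not occupied from a site to which reads could not be placed. The sources used here give neither the read length nor the treatment of reads that fit several places, and their part in the counts was not tested. The cluster of 6 genes on chromosome V at 8847393-8854053, with his-49 to his-54, had no unique word in any window and no candidate within its span. The cluster of 8 genes at 8889488-8898539 had candidates at his-17 and his-18 only, with window shares up to 35.2%.

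The spacers lie within the promoter windows, so their counts are not separate from those above. Of the 31 divergent pairs, 16 had a spacer identical to that of another pair, in 6 groups, and 15 had a spacer of their own. Not all of the 15 were mostly unique. The share of unique 36 bp words was 0% at his-58/his-57, 1.00% at his-17/his-18 and 16.1% at his-46/his-45 and his-55/his-56. Of the 15, 14 had a candidate in a window and 7 had a summit within the spacer. Of the 16, 5 had a candidate in a window and 0 had a summit within the spacer. The spacer of his-8/his-7 was 95.5% identical to a spacer present in 4 exact copies (his-51/his-52, his-54/his-53, his-21/his-22 and his-20/his-19), none of which had a candidate. That of his-4/his-3 was 88.7% identical to the 4 copies and 87.0% to his-8/his-7. All of these spacers were 292 bp long.

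The aligned stretch of these spacers is shown because the spacers with a high-scoring summit and those with no candidate are closely similar DNA. Each line is read 5′ to 3′ from the H2A to the H2B gene, from the RefSeq genome (WBcel235): his-4/his-3 at chrV:16040546-16040646 on the minus strand, his-8/his-7 at chrV:8533117-8533217 on the minus strand, and his-51/his-52 at chrV:8850333-8850433 on the plus strand. Capitals mark bases that differ from his-4/his-3. There were 16 in his-8/his-7 and 13 in his-51/his-52, and the other 3 copies read as his-51/his-52.
his-4/his-3: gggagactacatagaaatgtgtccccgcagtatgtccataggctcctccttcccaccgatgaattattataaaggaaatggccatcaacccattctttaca
his-8/his-7: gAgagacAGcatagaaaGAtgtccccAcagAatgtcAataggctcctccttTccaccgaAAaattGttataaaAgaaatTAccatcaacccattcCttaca
his-51/his-52: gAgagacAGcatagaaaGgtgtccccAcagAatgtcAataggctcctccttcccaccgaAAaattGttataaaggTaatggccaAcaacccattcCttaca

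The word tataaa before the H2B gene was intact in each line. The his-8/his-7 summit, at 8533235, lay just beyond the stretch, on the H2A side. The entry intervals were 75.9% unique at his-4/his-3 and 78.0% at his-8/his-7, whereas the promoter windows of the 4 copies held no unique word. At his-61/his-62 the entry interval was 61.4% unique.

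Over all sequence in the windows, unique or not, candidates were denser in the genes than in the spacers. There were 30 candidates with a summit inside a histone gene, 1.12 per kb of the 26.7 kb of gene sequence. The divergent spacers had 7, or 0.838 per kb of 8.35 kb, and the rest of the windows 22, or 0.717 per kb of 30.7 kb. The whole genome had 0.720 per kb. With 7 candidates in spacers, these densities rest on few entries. All 7 lay in the 15 spacers with no identical copy. The 16 spacers with an identical copy hold no unique 36 bp word, yet their length counts in the 8.35 kb. The order of genes and spacers over unique sequence alone was not tested. As 64 of the 72 loci had no annotated untranslated region, their annotated starts were the first base of the coding sequence, and the windows are placed from there.

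Motifs known for bHLH factors differed in how they stood upstream of histone genes: CACGTG and CACGNG had lower shares than over all genes, CANNTG and CACNAG had higher ones, and CACGCG stood near the share of all genes. In the 300 bp before each start, CACGCG occurred on either strand at 3 of 72 loci (4.17%), beside 5.06% of all genes, and CACGNG, which includes it and CACGTG, at 6.94% beside 19.6%. CACGTG occurred at 1.39% beside 5.74%, and CANNTG at 83.3% beside 66.1%. CACNAG occurred at 48.6% beside 23.9%, at 86.7% of H3 and 81.2% of H4 loci and at 17.6% of H2A and 18.8% of H2B loci. TATAAA occurred at 70.8% of histone loci beside 39.6% of all genes, and CCAAT at 56.9% beside 45.1%. The 72 upstream sequences were 51 distinct ones. Divergent partners share most of this DNA, as their spacers are 227 to 368 bp long, and a match on either strand counts for both. The 51 still hold such shared DNA, since the divergent pairs have only 21 distinct spacers. The shares of H3 and H4, and those of H2A and H2B, are therefore not separate counts. Over distinct sequences CACGCG stood at 5.88% beside 5.05% of all genes, which turns its direction, and the other 6 motifs kept theirs. In windows of 100 bp on either side of the summit, CACGCG occurred in 12.6% of all 675 conservative entries and CACGTG in 4.74%, and neither at his-61/his-62, his-4/his-3, his-8/his-7, his-31/his-32 or mdf-1/his-35. The same windows held CACGNG at his-61/his-62 (27.6% of the 675), CANNTG at the other 4 (51.6%), and CACNAG at his-31/his-32 and mdf-1/his-35 (31.9%). A match is a description of letters and not a bound site.

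Genes that handle or vary histones were looked at beside them, in a list of 25. Of these, 3 had a summit in the conservative set, unc-85, spt-16 and hil-7, beside 1.42% of all genes. Unc-85, an Asf1-type histone chaperone, had a score of 1000 with signals of 40.8 in replicate 1, 76.5 in replicate 2 and 116.9 between replicates, the last above the signal of every histone entry. Hil-7, a linker histone, had a score of 927 and signals of 35.95 in replicate 1, 39.7 in replicate 2 and 73.8 between replicates. Spt-16, of the FACT chaperone, had a score of 848 and signals of 35.1 in replicate 1, 37.2 in replicate 2 and 67.4 between replicates. Only unc-85 passed in the other thresholded set, beside 1.41% of all genes. Unc-85 and chaf-2 (of the CAF-1 chaperone) passed in the set of replicate 2, beside 0.926%, and 0 of 25 passed in that of replicate 1, beside 0.646%. The stem-loop binding protein gene cdl-1 had a best score of 467. In the ranked list, 18 of the 25 had a candidate, beside 60.2% of all genes.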

How the data were processed

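Peak lists from 2 biological replicates were used as deposited. Per the deposited notes, peaks came from filtered alignments on ce11 and a control file. No aligner, peak caller or version is named in the sources used here. Depth is unknown, so no interval is printed. The authors deposited a score (a transform of the global IDR up to 1000), a signal whose scale is not stated, and in the ranked lists the −log10 of the global IDR and the signals of the 2 inputs. A score of 830 stands for a global IDR of 0.01. The first input of the ranked list matched replicate 1's own list exactly in interval and signal for 672 of the 675 conservative entries and replicate 2's for 0; the second matched replicate 2's for 671 and replicate 1's for 0. At histone loci 39 and 42 of 59 matched, among them the candidates of his-61/his-62, his-41, his-4/his-3, his-8/his-7, his-24, his-31 and his-6/his-5.

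Coordinates are 1-based; chromosome lengths of WBcel235 held every interval. Summits were assigned to genes, words counted and motifs searched with Python 3.11.15, numpy 2.4.6, pandas 2.3.3, pysam 0.24.0 and Biopython 1.88 (spacer alignment). Assignment, repeat detection and word counting were tested on simulated data. Named are loci with a summit in any thresholded set, the 10 best others, single and H3.3 genes, his-24, and related genes that passed. All other genes in the text were named after their values were seen. Members and lists were chosen with earlier results of these data known. With 1 group, no test was run; counts stand beside those of all protein-coding genes. No protein sequences were used here.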

Additional observations from a re-analysis of the deposited data

How the results depend on the processing

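No paired analysis was possible because the series has 1 group and the results come from no test. The count of 5 loci with a conservative summit was 3 with a window of 500 bp upstream and 100 bp downstream and 0 where the global IDR was held to 0.001, where the 3 entries also fell to 0. Through the set of a single replicate, the loci were between 0 and 3 and the entries between 0 and 2. Under 9 other alternatives the 5 loci stayed within 1.5 times (4 to 6), and so did the 3 entries under 11 (2 to 4). Among these, 2 chosen after the data were seen (core histone genes only, and windows at least 50% unique) could not change the counts. All 5 loci met both conditions. With repeated entries left out, keeping the higher score, 4 loci and 2 entries were left. Both entries of the his-41 couple had the capped score of 1000, so the tie was settled by signal. Keeping the higher signal, chosen after the data were seen, was therefore the same choice there and gave the same counts. By −log10 global IDR the his-41 entry stood slightly higher, at 2.524 against 2.522 for the stronger entry. The 39 loci with a candidate were between 26 and 52 under 8 alternatives, 2 of them (core histone genes only, and windows at least 50% unique) chosen after the data were seen. The 19 groups became 19 and 18 with gaps of 5000 and 20000 bp, and 9 repeated entries remained with identical replicate intervals required as well. With 2 replicates and no depth given, a locus without an entry is one where no peak was detectable in these lists, which does not show it free of REF-1.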
